A study of Mus musculus with 33 samples.

Results

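Forebrain RNA of C57BL/6J (B6J) mice was compared with that of B6J mice carrying the transgene Tg(n-Tr20), with 4 libraries in each group. These are 8 of the 33 libraries of the study, and they were chosen by their labels alone (forebrain, batch 1, and either genotype). The labels call the B6J mice hypomorphic mutants for n-Tr20, an arginine tRNA, so a low level of the tRNA was set against a restored one within 1 strain. A second library of transgenic mouse 4, labelled batch 2, was kept apart. The other 8 forebrain libraries of batch 1 came from C57BL/6NJ (B6N) mice lacking n-Tr20 (n-Tr20 -/-, called B6N knockout here) and from B6N mice with wild-type n-Tr20. They shared the estimate of the spread and gave the comparison most like this one. All mice were 8 weeks old, and the strain background was C57BL/6J in both groups compared. The sources used here do not say how the transgene is driven, how many copies there are or where it sits.

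The tRNA n-Tr20 is made in neurons and reads the arginine codon AGA. When a tRNA is short, ribosomes pause at its codon, and paused ribosomes can activate the kinase GCN2 (gene Eif2ak4), which phosphorylates the initiation factor eIF2. General translation then slows while ATF4 is made, a transcription factor that raises genes for amino acid synthesis, amino acid uptake and tRNA charging. This program is the integrated stress response.

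Libraries held 14.7 to 21.3 M estimated counts in B6J and 17.2 to 23.1 M in transgenic forebrain (M, 1e6). Neuron markers were present at nearly even levels, the summed level of 9 markers running from 5042 to 5364 CPM (counts scaled to 1e6 per library) in B6J and from 5034 to 5259 CPM in transgenic libraries. All 16 libraries of batch 1 carried Y-linked RNA (Ddx3y at 48.5 to 63.4 CPM) and little Xist (at most 1.8 CPM). The labels' difference in n-Tr20 had no direct check, because the mature tRNA was not measured here. On GRCm38.p6 the tRNA gene, annotated as n-TRtct5, lies at chr1:173390329-173390402 within the span of Aim2, and none of the 6 tested genes within 200 kb was called (log2 fold changes -0.37 to 0.32, lowest adjusted p = 0.438).

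A small set of genes differed, nearly all by less than 1.5-fold. Of 25151 genes tested, 63 (0.25%) were called at a Benjamini-Hochberg adjusted p under 0.05 by edgeR's quasi-likelihood test. B6J was higher for 43 of them (0.171%) and lower for 20 (0.0795%), and 58 of the 63 were protein coding. Rises were 1.13-fold to 1.66-fold with a median of 1.2-fold, and falls 1.12-fold to 5.11-fold with a median of 1.24-fold. Libraries of the groups did not overlap for 62 of the 63, the exception being Arrb1. Among all genes tested, non-overlapping libraries were seen with B6J above for 2.61% and with B6J below for 2.45%. The called genes with a RefSeq position (60 of 63) lay on 18 chromosomes. In bulk tissue, fewer cells of a type and less RNA per cell cannot be told apart, and this holds for every gene below.

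**Figure D1:**
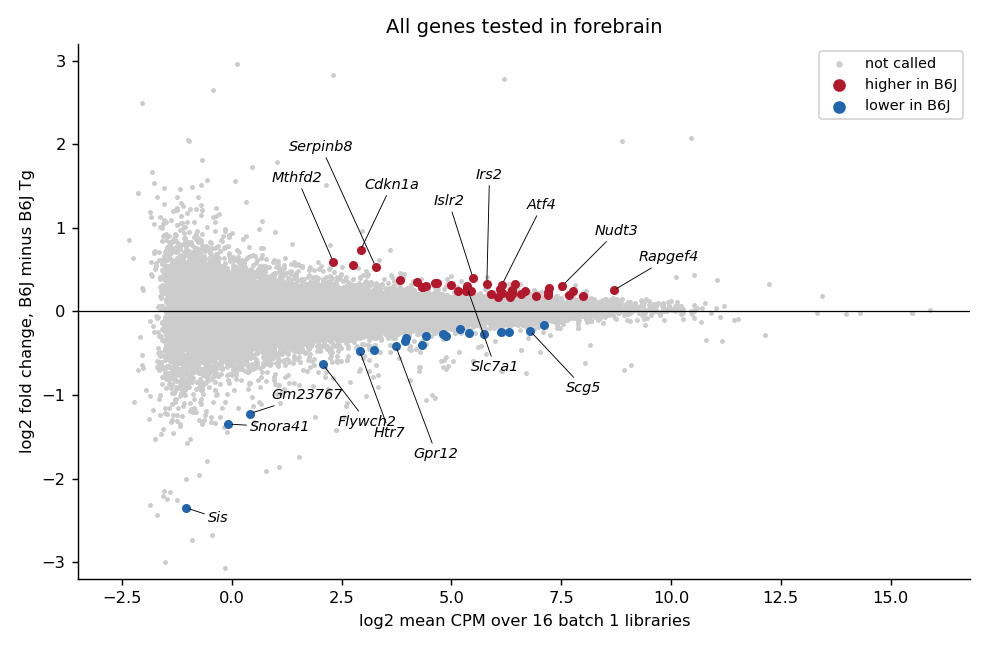
Log2 fold change of B6J over B6J transgenic (B6J Tg) forebrain against the log2 mean CPM over 16 libraries, 1 point per gene tested. The 43 called rises (red) and 20 called falls (blue) sit close to 0 on the vertical axis, apart from the low-abundance falls of Sis, Snora41 and Gm23767, and 16 genes that were not called lie beyond the axis limits.

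The number of calls rested on a few libraries and on how transcript length was treated. Leaving out 1 library gave 16 calls (without B6J 3) to 196 calls (without transgenic 1). The other counts were 112 without B6J 1, 24 without B6J 2, 34 without B6J 4, 86 without transgenic 2, 36 without transgenic 3 and 29 without transgenic 4. An offset for each gene's average transcript length left 6 calls, namely Atf4, Irs2, Mthfd2, Otub2, Snora41 and Sis. In each of the 8 leave-one-out fits 13 genes kept their call: Atf4, Slc7a1, Irs2, Adar, Islr2, Serpinb8, Nudt3, Snora41, Fbxw11, Scg5, Prickle2, Rapgef4 and A830018L16Rik. No called gene changed sign under any of the 20 alternatives.

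Atf4, which encodes the transcription factor of this response, was higher in every B6J library. It was at 77.5, 75.2, 72.6 and 73.7 CPM in the 4 B6J libraries and at 58.7, 61.0, 62.6 and 58.03 CPM in the 4 transgenic libraries. The highest transgenic library thus stayed below the lowest B6J library. Atf4 (ENSMUSG00000042406.8, chromosome 15 from 80255184 to 80257545) averaged 74.8 ± 2.10 CPM in B6J and 60.1 ± 2.10 CPM in transgenic forebrain (SD, n = 4 each), and its log2 fold change was 0.32 ± 0.04 (SE, with an adjusted p of 0.000137). It kept its call under all 20 alternatives (adjusted p = 1.93e-08 to 0.0100). The coding transcript Atf4-201 held 94.0% of the gene's counts, with 71.2 ± 2.21 CPM in B6J and 55.6 ± 2.80 CPM in transgenic libraries. The transcript Atf4-203, which retains an intron, averaged 3.43 ± 0.583 CPM in B6J and 4.50 ± 0.873 CPM in transgenic libraries, and its libraries overlapped.

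**Figure D2:**
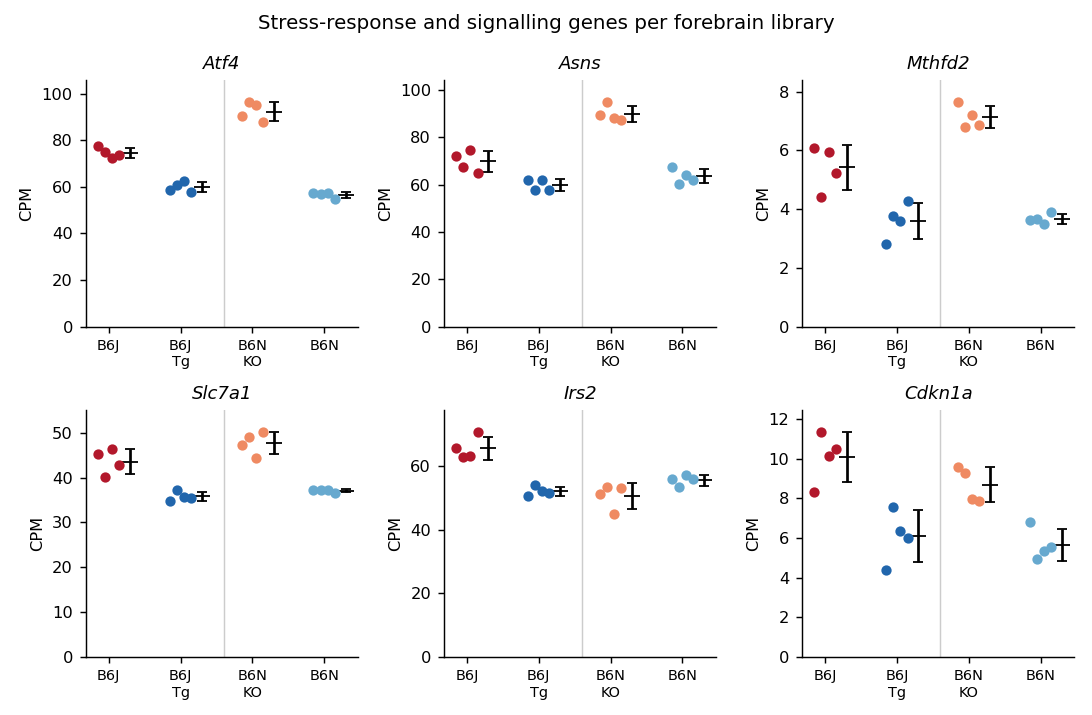
CPM of 6 named genes in each forebrain library of batch 1, with the mean and SD of each group of 4 beside the points (Tg, transgenic; KO, knockout). All 4 B6J libraries lie above all 4 transgenic libraries in every panel, whereas for Irs2 the B6N knockout libraries do not lie above the B6N libraries.

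ATF4 acts with partners of the C/EBP family at a promoter element known as the C/EBP-ATF response element, whose core is written TGATGNAA. These letters were searched on both strands of RefSeq promoter windows of 300 bases (250 before and 50 after the start, GRCm38.p6). They were found for 4.51% of 27025 genes with a promoter, for 13 of the 39 stress response genes with a promoter (33.3%) and for 5 of 8 stress-induced tRNA synthetases (62.5%), whereas none of 20 other tRNA synthetases had them. Of the 36 genes called higher in B6J that had a promoter, 2 had the letters (5.56%), Asns and Yars, and of the 13 called lower none had them. A match is a description of the letters in this window and not evidence of binding. The matching stretches of these called genes, and of Chac1 and Slc1a4, a pair of ATF4 targets that were not called, are given with the core in capitals.
Asns (chr6:7693215-7693242, minus strand): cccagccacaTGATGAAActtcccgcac
Yars (chr4:129189896-129189923, plus strand): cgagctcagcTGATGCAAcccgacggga
Chac1 (chr2:119351039-119351066, minus strand): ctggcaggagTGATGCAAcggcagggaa
Slc1a4 (chr11:20332700-20332727, plus strand): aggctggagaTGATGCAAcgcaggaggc

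Few genes of the stress program passed the test one by one. Of 46 listed genes 44 passed the filter on low counts. Of these, 4 rose and none fell (Atf4, Asns, Mthfd2 and Slc7a1). The median log2 fold change was 0.11 over the 44 genes, 36 of them positive, against -0.0013 over all 25151 genes, of which 12475 were positive. B6J libraries lay above all transgenic libraries for 14 of the 44 and below them for none. Over all genes tested, 0.171% were called higher and 0.0795% lower, and B6J libraries lay above for 2.61% and below for 2.45%. These shares, with the 12475 positive genes of 25151, are the background for each count by role or list below. The count of 4 fell to 2 in a fit of the 8 libraries alone, with the length offset, and without B6J 1 or without B6J 3.

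By role, all 8 transcription factors tested had a positive fold change, Atf4 alone being called. Not all of these signs were stable, Ddit3 changing sign under 5 of the 20 alternatives. Atf3, which averaged 0.749 CPM in B6J and 0.613 CPM in transgenic forebrain, changed sign under 1 of 19. Atf5, a relative of Atf4 that is raised by the same response, was at 6.62, 4.81, 6.15 and 5.58 CPM in B6J and at 4.21, 4.10, 4.89 and 4.79 CPM in transgenic libraries (0.36 ± 0.12, adjusted p = 0.231). One B6J library fell inside the transgenic range. Ddit3, which encodes the factor CHOP linked to prolonged stress, had nearly equal means of 14.6 ± 1.24 CPM in B6J and 14.5 ± 0.66 CPM in transgenic forebrain (0.01 ± 0.07, adjusted p = 0.989).

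Among 14 enzymes of amino acid and folate metabolism, 2 rose and 11 were positive, with a median of 0.18. Asns, the asparagine synthetase, was at 72.2, 67.5, 74.8 and 65.0 CPM in B6J and at 61.9, 57.7, 62.1 and 57.7 CPM in transgenic libraries. The groups did not overlap, and the log2 fold change was 0.22 ± 0.05 (adjusted p = 0.0263). Mthfd2, a mitochondrial folate enzyme, was at 6.08, 4.42, 5.94 and 5.23 CPM in B6J and at 2.80, 3.75, 3.58 and 4.27 CPM in transgenic libraries. Its groups were separated by the narrow gap between B6J 2 and transgenic 4, with a log2 fold change of 0.60 ± 0.13 (adjusted p = 0.0263). The leading coding transcript Mthfd2-201, with 80.2% of the counts, overlapped, at 3.56 CPM in B6J 2 and 3.64 CPM in transgenic 4. Asns-201, with 94.8% of the Asns counts, did not overlap. The call of Asns ended without each of B6J 1, 2 and 3 and transgenic 2 and 4 (adjusted p = 0.0592 to 0.158), and that of Mthfd2 without each of B6J 1, 3 and 4 and transgenic 1 and 3 (adjusted p = 0.0629 to 0.120). Over all 20 alternatives the adjusted p ran from 0.00623 to 0.189 for Asns and from 0.0112 to 0.145 for Mthfd2. Enzymes of serine synthesis moved little, Phgdh having a log2 fold change of 0.02 ± 0.05 and Psat1 one of 0.06 ± 0.05. Gpt2, the mitochondrial alanine transaminase, had one of 0.18 ± 0.05 with non-overlapping libraries (adjusted p = 0.117).

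Of 9 amino acid transporters on the list 1 rose and 6 were positive. Slc7a1, the main carrier of arginine and lysine into cells, was at 45.2, 40.03, 46.3 and 42.7 CPM in B6J and at 34.9, 37.3, 35.6 and 35.5 CPM in transgenic libraries. All B6J libraries were above all transgenic libraries, with a log2 fold change of 0.28 ± 0.05 (adjusted p = 0.00605). Slc7a1-201, the transcript with 85.9% of the counts, also had B6J libraries above all transgenic libraries. Slc7a1 lost its call under 1 of 20 alternatives, the length offset (0.00059 to 0.256 being the range of its adjusted p). Slc7a5, a large neutral amino acid carrier, had 31.4 ± 1.43 CPM in B6J and 25.2 ± 3.05 CPM in transgenic forebrain (0.32 ± 0.08, adjusted p = 0.117). Slc7a3, a second arginine carrier, had 6.43 ± 0.968 CPM in B6J and 5.36 ± 0.689 CPM in transgenic forebrain (0.24 ± 0.15, adjusted p = 0.612). Slc7a11, the cystine carrier, had a log2 fold change of -0.10 ± 0.05.

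None of the 13 tested members that act as brakes or other targets passed, although 11 were positive. Chac1, which breaks down glutathione, was at 3.58, 4.09, 3.66 and 4.52 CPM in B6J and at 3.33, 2.71, 2.71 and 2.54 CPM in transgenic libraries, without overlap (0.48 ± 0.14, adjusted p = 0.155). It passed in 1 of the 20 alternatives, without both number 1 libraries (0.63, adjusted p = 0.0476). Sesn2, an inhibitor of mTORC1, had a log2 fold change of 0.26 ± 0.10 (adjusted p = 0.33) and Stc2, a secreted glycoprotein, one of 0.61 ± 0.20 (adjusted p = 0.218), both without overlap. Ppp1r15a, which restores eIF2 by removing its phosphate, had one of -0.12 ± 0.09. Trib3, a pseudokinase induced by ATF4, averaged 0.353 CPM in both groups. Upstream of Atf4, Eif2ak4 itself had 30.6 ± 1.59 CPM in B6J and 31.3 ± 0.128 CPM in transgenic forebrain, and Gtpbp2, a ribosome rescue factor that is known to be deficient in a mouse line in which the n-Tr20 variant causes neurodegeneration, had 38.2 ± 2.41 CPM in B6J and 37.7 ± 3.10 CPM in transgenic forebrain. None of the 22 tested genes of eIF2 kinases, phosphatases and ribosome rescue was called.

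**Figure D3:**
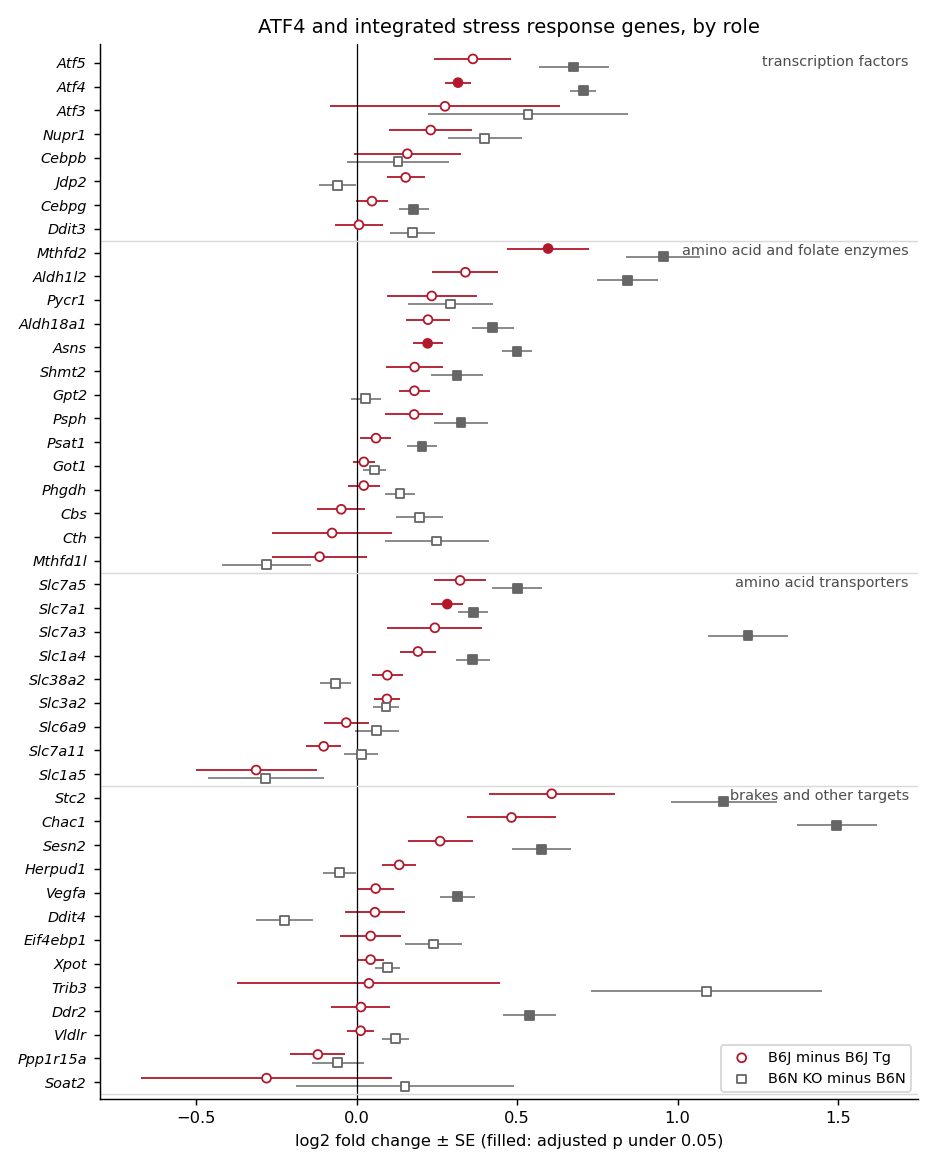
Log2 fold change ± SE of the 44 tested stress response genes, grouped by role, for B6J minus B6J transgenic (circles) and B6N knockout minus B6N (squares), with filled symbols for adjusted p under 0.05. The 4 called genes of the first comparison lie at 0.22 to 0.60, and 19 genes are filled in the second.

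Aminoacyl-tRNA synthetases load tRNAs with amino acids. Of 12 cytosolic synthetases known to be raised by ATF4, 2 rose, 10 were positive, and 6 had B6J libraries above all transgenic libraries (median 0.09). Among all 25151 genes tested, 0.171% were called higher, 12475 were positive and 2.61% had B6J libraries above all transgenic ones. Cars, for cysteine, was at 34.5, 35.9, 38.1 and 37.0 CPM in B6J and at 30.2, 30.02, 30.3 and 32.3 CPM in transgenic libraries (0.24 ± 0.05, adjusted p = 0.0205). Yars, for tyrosine, was at 72.5, 68.0, 71.8 and 70.1 CPM in B6J and at 61.7, 63.5, 61.2 and 63.6 CPM in transgenic libraries (0.18 ± 0.04, adjusted p = 0.042). Neither gene's groups overlapped. The leading transcript Cars-202, with 63.6% of the counts, did overlap, at 19.7 CPM in B6J 2 and 21.5 CPM in transgenic 4. Yars-201, with 76.0% of the Yars counts, did not. Of the 25 other synthetases none was called, with a median of 0.02, and the difference between the classes was not tested. The call of Cars ended without each of B6J 2, 3 and 4 and transgenic 3 (adjusted p = 0.0546 to 0.106), and that of Yars without every library but transgenic 1 (adjusted p = 0.0543 to 0.147). Over the 20 alternatives the adjusted p ran from 0.00809 to 0.434 for Cars and from 0.0125 to 0.670 for Yars.

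Irs2 was 1 of 2 genes to keep its call under all 20 alternatives, Atf4 being the other. It encodes an adaptor that couples the insulin and IGF1 receptors to PI3 kinase. It was at 65.6, 62.9, 63.3 and 70.7 CPM in B6J and at 50.7, 54.1, 52.1 and 51.7 CPM in transgenic libraries. The gap between the groups was wider than the range within either of them. Irs2 (ENSMUSG00000038894.7, a single annotated transcript with all of its counts) averaged 65.6 ± 3.56 CPM in B6J and 52.2 ± 1.45 CPM in transgenic forebrain, a log2 fold change of 0.33 ± 0.05 (adjusted p = 0.000641, and 5.40e-06 to 0.0448 under the alternatives). The other 24 tested genes of insulin, IGF and FOXO signalling were not called, the list's median being -0.01. Igf1r, the IGF1 receptor, had non-overlapping libraries at 0.11 (adjusted p = 0.34). None of 24 mTORC1 regulators and targets was called, with a median of 0.03.

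Cdkn1a, the cell cycle inhibitor p21, had the largest called rise. It was at 8.34, 11.3, 10.2 and 10.5 CPM in B6J and at 4.40, 7.56, 6.38 and 6.00 CPM in transgenic libraries, so B6J 1 came within 1 CPM of transgenic 2 without overlap. The log2 fold change was 0.73 ± 0.13 (1.66-fold, adjusted p = 0.0121), and Cdkn1a-201 held 90.4% of the counts. Its call ended without each of B6J 2, 3 and 4 and transgenic 4 (adjusted p = 0.0518 to 0.0592, and 0.000226 to 0.0734 over the alternatives). It was the only called gene among 17 tested p53 targets and cell cycle inhibitors, whose median was 0.02.

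Cdkn1a also stood on a list of 22 tested genes of the glucocorticoid response, of which 2 rose, 18 were positive and 5 had B6J libraries above all transgenic ones (median 0.13). The other called member was Fkbp5, a co-chaperone of the glucocorticoid receptor, at 35.2, 34.4, 34.7 and 32.4 CPM in B6J and at 27.2, 26.1, 27.8 and 29.0 CPM in transgenic libraries (0.31 ± 0.06, adjusted p = 0.019). Its call ended without B6J 2 or B6J 3 (adjusted p = 0.0633 and 0.0795, with 0.00214 to 0.658 over the alternatives). Klf9, a hormone-responsive transcription factor, had 0.15 without overlap (adjusted p = 0.143). Over all 25151 genes tested, 0.171% were called higher, 12475 were positive and 2.61% had B6J libraries above all transgenic ones. Of 22 circadian clock genes 1 rose: Csnk1d, the kinase that acts on PER proteins, averaged 89.3 ± 2.03 CPM in B6J and 77.6 ± 2.38 CPM in transgenic forebrain (0.20 ± 0.04, adjusted p = 0.019). The call of Csnk1d ended without each of B6J 3, B6J 4 and transgenic 4 (adjusted p = 0.0795 to 0.103, with 0.00171 to 0.357 over the alternatives). Pfkfb3, which drives glycolysis through fructose 2,6-bisphosphate, averaged 30.3 ± 2.70 CPM in B6J and 23.9 ± 2.44 CPM in transgenic forebrain (0.34 ± 0.07, adjusted p = 0.019), its call ending without B6J 3 or transgenic 3 (adjusted p = 0.0512 to 0.120).

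Of 32 tested leucine-rich repeat and neurite outgrowth membrane proteins 1 rose, Islr2. Islr2, a leucine-rich repeat protein of axon growth also called Linx, was at 49.4, 53.6, 54.1 and 52.9 CPM in B6J and at 39.97, 44.1, 37.9 and 36.7 CPM in transgenic libraries. The groups were apart, with a log2 fold change of 0.40 ± 0.06 (adjusted p = 0.00101, and 3.07e-06 to 0.357 over the alternatives, the length offset alone ending the call). Among its transcripts, Islr2-210 was at 7.45 to 11.4 CPM in B6J and at 0 to 4.58 CPM in transgenic libraries, whereas the leading Islr2-202 overlapped. Mdga1, a cell surface protein that binds neuroligin, was at 21.1 to 21.6 CPM in B6J and at 14.2 to 18.9 CPM in transgenic libraries (0.36 ± 0.07, adjusted p = 0.019). Kcng1, a modulatory potassium channel subunit, rose at 0.38 ± 0.09 (adjusted p = 0.0491) and lost its call without each of B6J 2, 3 and 4 and transgenic 3 and 4 (adjusted p = 0.0968 to 0.209). Mdga1 lost its call without each of B6J 2, 3 and 4 and transgenic 4 (adjusted p = 0.0518 to 0.0653). Prickle2, a planar polarity protein found at synapses, averaged 237 ± 4.26 CPM in B6J and 200.4 ± 14.3 CPM in transgenic forebrain (0.24 ± 0.04, adjusted p = 0.00632).

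Falls among receptors were those of Htr7 and Gpr12. Htr7, a serotonin receptor coupled to cyclic AMP production, was at 7.21, 6.53, 5.52 and 5.93 CPM in B6J and at 7.93, 9.18, 9.91 and 8.08 CPM in transgenic libraries. The groups did not overlap, though B6J 1 and transgenic 1 were close, and the log2 fold change was -0.47 ± 0.11 (adjusted p = 0.0447). It was the only called gene among 13 tested serotonin receptors. Its call ended without each of B6J 2, 3 and 4 and transgenic 2, 3 and 4 (adjusted p = 0.0724 to 0.187, with 0.0102 to 0.343 over the alternatives). The leading coding transcript Htr7-202, with 35.5% of the counts, did not fall. It averaged 3.04 ± 1.55 CPM in B6J and 2.32 ± 2.09 CPM in transgenic libraries with overlap. The next coding transcript, with 33.5% of the counts, averaged 1.38 CPM in B6J and 3.66 CPM in transgenic libraries without overlap. Gpr12, an orphan receptor of neurons, was at 12.2, 10.4, 11.3 and 11.9 CPM in B6J and at 16.96, 16.1, 14.4 and 13.6 CPM in transgenic libraries (-0.41 ± 0.08, adjusted p = 0.0138). Its call ended without B6J 2 or B6J 3 (adjusted p = 0.0754 and 0.0561, with 0.00205 to 0.205 over the alternatives). Most of the Gpr12 counts (78.1%) were those of Gpr12-202, a transcript that retains an intron. It averaged 8.82 ± 0.686 CPM in B6J and 12.1 ± 2.19 CPM in transgenic libraries with overlap, at 9.45 CPM in B6J 3 and 9.14 CPM in transgenic 4. The coding transcripts Gpr12-201, Gpr12-203 and Gpr12-204 overlapped too, so a fall of coding Gpr12 RNA was not shown. Among 44 glutamate synapse genes, 24 GABA synapse genes, 40 genes of presynaptic release, 60 ion channels and 24 neuropeptides none was called. No gene of 35 on the immediate-early list (rapidly induced by neuronal activity) was called either, with a median of -0.07.

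Nudt3 and Adar were among the genes that kept their call in every leave-one-out fit. Nudt3, a Nudix hydrolase of inositol pyrophosphates that can also remove mRNA caps, was at 206, 199.6, 202 and 195 CPM in B6J and at 168, 163, 158 and 159 CPM in transgenic libraries. It had the smallest adjusted p of the genes described (0.31 ± 0.04, adjusted p = 4.86e-05). Adar, the enzyme that edits adenosine to inosine in double-stranded RNA, was at 167, 158, 166 and 168 CPM in B6J and at 139, 140.3, 139 and 123 CPM in transgenic libraries (0.28 ± 0.04, adjusted p = 0.000416). Its leading transcript Adar-202, of 5909 bases, averaged 128 CPM in B6J and 102 CPM in transgenic libraries without overlap, and Adar-201 averaged 27.4 CPM in B6J and 24.5 CPM in transgenic libraries with overlap. Nudt3 and Adar each lost the call under 1 alternative, the length offset (adjusted p = 0.0734 and 0.0811, with lowest values of 2.02e-12 and 1.93e-08).

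The paralogs Btrc and Fbxw11, substrate receptors of a ubiquitin ligase that recognise phosphorylated proteins, both rose. Fbxw11 was at 104, 100.2, 102 and 103 CPM in B6J and at 90.2, 88.2, 89.0 and 86.5 CPM in transgenic libraries (0.21 ± 0.04, adjusted p = 0.00584). Btrc was at 85.6, 84.5, 85.7 and 84.2 CPM in B6J and at 75.5, 75.5, 75.8 and 74.6 CPM in transgenic libraries (0.17 ± 0.04, adjusted p = 0.022). The spread within each group of Btrc was under 1 CPM (SD 0.769 in B6J and 0.511 in transgenic forebrain). Its call nonetheless ended without each of 5 libraries, B6J 2, 3 and 4 and transgenic 3 and 4 (adjusted p = 0.051 to 0.102, with 0.00315 to 0.303 over the alternatives). Rapgef4, the cyclic AMP sensor EPAC2, averaged 463 ± 11.96 CPM in B6J and 388 ± 22.4 CPM in transgenic forebrain (0.25 ± 0.04, adjusted p = 0.000527). Rapgef4-202 averaged 305 ± 13.8 CPM in B6J and 240.0 ± 14.2 CPM in transgenic libraries without overlap, and Rapgef4-203 averaged 125 ± 7.66 CPM in B6J and 114 ± 6.98 CPM in transgenic libraries with overlap. Bzw1, a regulator of start codon choice that mimics eIF5, averaged 154 ± 6.38 CPM in B6J and 135 ± 6.24 CPM in transgenic forebrain (0.19 ± 0.04, adjusted p = 0.0205), with the call lost without B6J 2, B6J 3 or transgenic 2 (adjusted p = 0.0657 to 0.120). Serpinb8, an intracellular protease inhibitor, averaged 11.3 ± 0.973 CPM in B6J and 7.78 ± 0.824 CPM in transgenic forebrain (0.54 ± 0.10, adjusted p = 0.0064).

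Falls were fewer and mostly small. Flywch2 was at 3.29, 3.43, 3.87 and 3.00 CPM in B6J and at 5.22, 5.31, 5.50 and 4.91 CPM in transgenic libraries (-0.63 ± 0.12, adjusted p = 0.012), losing its call without B6J 4 (adjusted p = 0.0555, with 0.00449 to 0.0832 over the alternatives). Scg5, the chaperone 7B2 of the prohormone convertase PC2, was at 102, 103, 109 and 106 CPM in B6J and at 124, 119.6, 122 and 125 CPM in transgenic libraries (-0.23 ± 0.04, adjusted p = 0.00584). Both genes were separated without overlap. Tmsb10, an actin-binding peptide, averaged 64.9 ± 1.99 CPM in B6J and 76.9 ± 2.15 CPM in transgenic forebrain (-0.25 ± 0.04, adjusted p = 0.00615), and lost its call without B6J 3 (adjusted p = 0.0532, with 0.000352 to 0.201 over the alternatives). Rab2a, a small GTPase of traffic between the endoplasmic reticulum and Golgi, fell by 0.17 on the log2 scale (adjusted p = 0.0263). Brca2, a DNA repair protein, fell by 0.32 (adjusted p = 0.0266), its leading coding transcript Brca2-210 having B6J libraries below all transgenic ones. Rab2a lost its call without each of 6 libraries, all but transgenic 1 and 2, and Brca2 without each of 5, B6J 1, 2 and 3 and transgenic 3 and 4 (adjusted p = 0.0561 to 0.127 and 0.0647 to 0.125).

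A pair of small nucleolar RNAs fell by over 2-fold at low levels. Snora41 (chromosome 1 from 63179023 to 63179135) was at 0.637, 0.553, 0.483 and 0.529 CPM in B6J and at 1.21, 1.56, 1.35 and 1.62 CPM in transgenic libraries (-1.35 ± 0.23, adjusted p = 0.00584). Gm23767 (chromosome 7 from 59708469 to 59708562) was at 1.18, 0.774, 0.898 and 0.587 CPM in B6J and at 1.498, 1.67, 2.27 and 2.71 CPM in transgenic libraries (-1.22 ± 0.25, adjusted p = 0.019), and lost its call without each of B6J 2, 3 and 4 and transgenic 3 and 4 (adjusted p = 0.0662 to 0.115). Such short RNAs are recovered unevenly by libraries of fragmented total RNA. Other called falls not annotated as coding were those of Gm47821 and of the processed pseudogenes Gm47632 and Gm47476. Reads of the pseudogenes may be shared with their parent genes, and the values of all of these are uncertain.

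Sis, the sucrase-isomaltase of the intestine, averaged under 1 CPM and was picked out after its values were seen. It was at 0.294, 0.0553, 0.276 and 0.294 CPM in B6J and at 0.87, 1.501, 1.27 and 1.16 CPM in transgenic libraries. No B6N knockout or B6N library exceeded 0.488 CPM, so the 4 transgenic libraries stood above the other 12. Sis passed the filter on low counts only through the transgenic libraries and so had to differ, and its call is given no weight here. The 10 tested genes within 3 Mb of Sis were at -0.21 to 0.17 and none was called. Sis-204, a transcript with a retained intron, and the coding Sis-202 were at 0 in every B6J library. The coding Sis-201 averaged 0.23 CPM in B6J and 0.175 CPM in transgenic libraries, being at or next to 0 in 3 of the 4 transgenic libraries. Counts this low were thus split between transcripts differently in different libraries.

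The comparison most like this one is B6N knockout against B6N, in which n-Tr20 is absent and present at its wild-type level and which shares no library with the comparison above. There 481 genes (1.91%) were called. Of the 63 genes called between B6J and transgenic forebrain 29 were also called there, which is 46% of the first set and 6.03% of the second, and all 29 went the same way (22 up and 7 down with less n-Tr20). The difference between the strains was called for 1 of the 29, Atf4. In sign alone, 53 of the 63 went the same way, and the share over all genes tested was not computed. In the B6N knockout 19 of 44 stress response genes and all 12 stress-induced synthetases rose, where 1.11% of all genes were called higher and 0.807% lower.

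Shared genes outside the stress lists are given by their log2 fold changes in both strains. Flywch2 was at -0.63 ± 0.12 in B6J minus transgenic and at -0.63 ± 0.11 in B6N knockout minus B6N. Dgkb, a diacylglycerol kinase, was at 0.20 ± 0.04 and 0.19 ± 0.04 in the same order. Btrc was at 0.17 ± 0.04 and 0.19 ± 0.04, Rapgef4 at 0.25 ± 0.04 and 0.28 ± 0.04, Nudt3 at 0.31 ± 0.04 and 0.40 ± 0.04, and Cdkn1a at 0.73 ± 0.13 and 0.62 ± 0.13. Eml2, a microtubule-associated protein, fell at -0.24 ± 0.05 and -0.35 ± 0.05. None of these differed between strains by the test of the difference (adjusted p = 0.693 to 1), which does not show that they are equal. For example, the difference for Flywch2 had an SE of 0.16 and that for Cdkn1a one of 0.18.

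**Figure D4:**
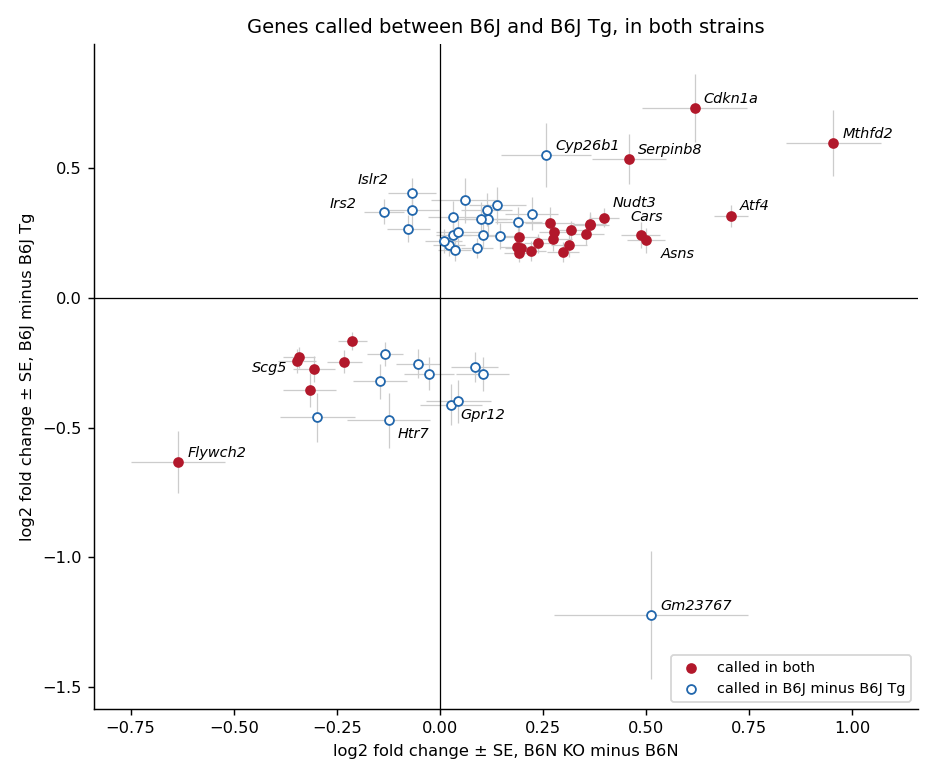
Log2 fold changes ± SE of 61 called genes averaging at least 1 CPM, with B6N knockout minus B6N on the horizontal axis and B6J minus B6J transgenic on the vertical axis. The 29 genes called in both (filled) lie in the upper right and lower left quadrants, and Irs2 and Islr2 lie left of 0 on the horizontal axis.

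The difference of the effects was called for 15 genes (0.0596%), higher for 10 (0.0398%) and lower for 5 (0.0199%). Atf4 was 1 of those lower, at 0.32 ± 0.04 in B6J minus transgenic and 0.71 ± 0.04 in B6N knockout minus B6N, a difference of -0.39 ± 0.06 (adjusted p = 0.00125). Chac1 was lower too, at 0.48 ± 0.14 and 1.496 ± 0.12 in the same order (difference -1.01 ± 0.19, adjusted p = 0.0228). Irs2 was higher by 0.47 ± 0.07 (adjusted p = 0.00125), at 0.33 ± 0.05 in B6J minus transgenic and -0.14 ± 0.05 in B6N knockout minus B6N. Islr2 was higher by 0.47 ± 0.08 (adjusted p = 0.0206), at 0.40 ± 0.06 and -0.07 ± 0.06 in the same order. Neither was called in the B6N comparison (adjusted p = 0.183 and 0.708). There Irs2 averaged 50.6 CPM in B6N knockout and 55.6 CPM in B6N forebrain, and Islr2 42.8 CPM in B6N knockout and 44.9 CPM in B6N forebrain. Snora41 differed by -1.79 ± 0.31 (adjusted p = 0.0194) and Gm23767 by -1.74 ± 0.34 (adjusted p = 0.0301), both being higher in the knockout means than in the B6N means. In these differences the strain and the amount of the tRNA cannot be told apart.

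Slc7a3 showed the widest gap of the transporters, at 0.24 ± 0.15 in B6J minus transgenic and 1.22 ± 0.12 in B6N knockout minus B6N (difference -0.98 ± 0.19, adjusted p = 0.0596). It averaged 14.6 CPM in B6N knockout and 6.21 CPM in B6N forebrain, against 6.43 CPM in B6J and 5.36 CPM in transgenic forebrain. Slc7a1 moved alike in the comparisons, at 0.28 ± 0.05 and 0.36 ± 0.05 (difference -0.08 ± 0.07, adjusted p = 0.816).

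Against B6N forebrain some named genes stood as follows, in comparisons that share libraries with each other and with that of B6J and transgenic forebrain. In B6J minus B6N 1.73% of genes were called (1.21% higher and 0.513% lower), and in transgenic minus B6N 0.366% (0.27% higher and 0.0954% lower). Atf4 was at 0.40 in B6J minus B6N (adjusted p = 9.89e-08) and at 0.08 in transgenic minus B6N (adjusted p = 0.553). Adar was at 0.32 (adjusted p = 4.90e-06) and 0.04 (adjusted p = 0.852) in the same order, and Nudt3 at 0.30 (adjusted p = 3.94e-06) and -0.01 (adjusted p = 0.984). Rapgef4 was at 0.34 (adjusted p = 3.33e-07) and 0.08 (adjusted p = 0.476). For these genes the transgenic libraries were the closer to B6N. The order was different for Klf10, a zinc finger factor, at -0.03 in B6J minus B6N (adjusted p = 0.902) and -0.33 in transgenic minus B6N (adjusted p = 0.0109). Cyp26b1, which breaks down retinoic acid, was at 0.03 (adjusted p = 0.953) and -0.52 (adjusted p = 0.0401). Fkbp5 was at 0.10 (adjusted p = 0.55) and -0.21 (adjusted p = 0.159). Gpr12 was at -0.19 (adjusted p = 0.279) and 0.22 (adjusted p = 0.287). How many of the called genes stood each way was not counted. Snora41 was at -0.46 (adjusted p = 0.52) and 0.89 (adjusted p = 0.0443), and Gm23767 at -0.20 (adjusted p = 0.844) and 1.02 (adjusted p = 0.0297). For both of these low-level RNAs the B6J libraries were the closer to B6N, and the transgenic libraries stood above it.

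Summed levels of region markers differed between libraries, and whether dissection did was not tested. Thalamus markers, 13 genes such as Prkcd and Slc17a6, summed to 322, 230, 237 and 235 CPM in B6J 1 to 4 and to 233, 338, 432 and 376 CPM in transgenic 1 to 4, and all 13 had negative fold changes with a median of -0.43. Choroid plexus RNA stood out in B6J 1, with Ttr (transthyretin) at 411 CPM against 0.768 to 1.76 CPM in the other B6J libraries, and at 49.7 CPM in transgenic 1 against 3.34 to 5.19 CPM in the other transgenic libraries. Hypothalamus markers had a median of -0.49, meninges markers one of -0.19 and oligodendrocyte markers one of -0.11. No marker of any of the 17 cell and region lists was called. With the summed thalamus markers as a term in the fit, 17 genes were called, among them 16 of the 63, including Atf4 (adjusted p = 0.000285), Irs2, Slc7a1, Mthfd2, Adar, Nudt3, Islr2, Gpr12, Fkbp5 and Scg5. Without both number 1 libraries 268 genes were called. Apart from these values, the part of tissue in the calls was not tested.

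**Figure D5:**
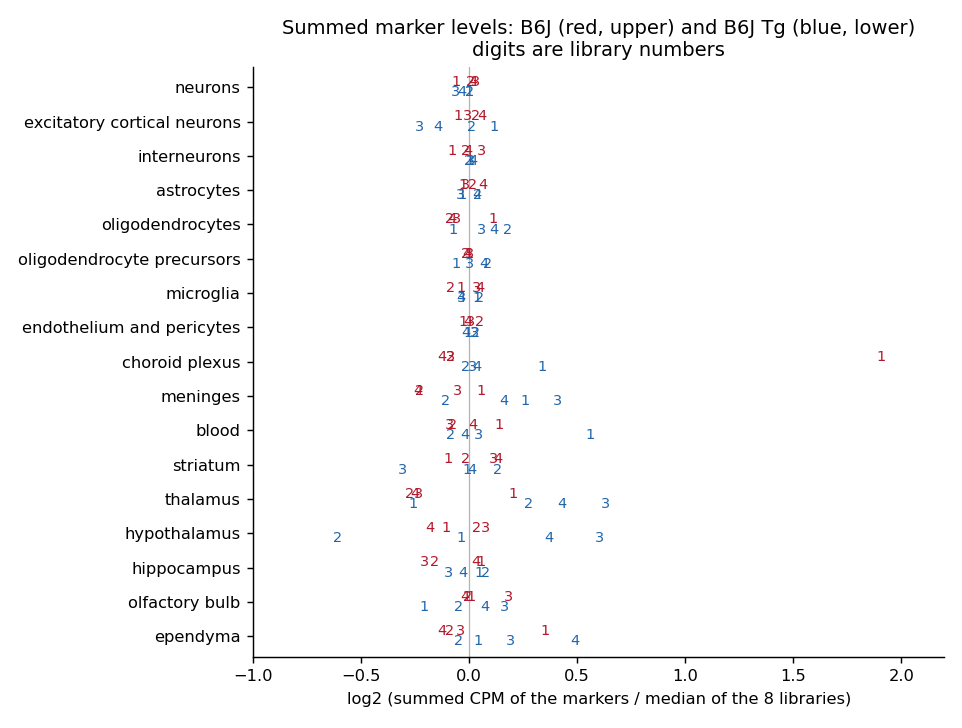
Summed CPM of each list of cell type or region markers per library, as the log2 ratio to the median of the 8 libraries, with B6J above B6J transgenic in each row and digits for library numbers. The CPM summed here are unscaled. Choroid plexus in B6J 1 stands furthest to the right, thalamus sums of transgenic 2, 3 and 4 lie right of all B6J sums, hypothalamus, meninges and blood sums also spread, and neuron, interneuron and astrocyte sums stay close to 0.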

How the data were processed

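Forebrain RNA depleted of ribosomal RNA was made into strand-marked libraries, per the labels' protocols. The authors deposited estimated counts, TPM and effective lengths per transcript, in the layout kallisto writes; Bowtie2 2.2.3, featureCounts, HISAT2 2.1.0 and kallisto 0.42.4 are listed without roles in the submitters' processing notes, and the annotation release is not given in the sources used here. Estimated counts were summed per gene over 54752 genes and rounded. The deposited TPM values were used for no test. The 16 libraries of batch 1 were fitted together in edgeR 4.0.16 (R 4.3.3; filterByExpr at a minimum count of 10, TMM, robust quasi-likelihood F test, two-sided), with 1 coefficient per group and Benjamini-Hochberg adjustment over all 25151 genes tested. Genes with an adjusted p under 0.05 are termed called, and only these are written of as rising or falling. CPM values use TMM-scaled library sizes except for Xist, Ddx3y and Ttr, for all summed marker levels, and where unscaled is stated. Those exceptions use the total counts of each library. Errors are SD for CPM and SE for log2 fold changes. The filter was set over all 16 libraries, so a low gene can pass it through 1 group. There were 5 comparisons (B6J minus transgenic, B6N knockout minus B6N, their difference, and each B6J group minus B6N).

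Named genes were Atf4, Slc7a1 and Irs2, called genes on the lists, the 15 rises and 12 falls with the largest change among called genes of at least 1 CPM, a set of stress genes whether called or not, and the genes of the 6 smallest adjusted p in the difference. Other called genes were named after their values were seen. Members and lists were chosen with earlier results of these data known. Libraries were taken as separate mice, which the labels do not state, so p-values measure the spread between these libraries. Depth of 14.7 to 24.2 M counts per library in batch 1 limits genes of low level, and no pair of replicates was as close as counting error (lowest chi-square over degrees of freedom 2.86). The common biological coefficient of variation was 7.04%. The script was tested on simulated data. Alternatives used DESeq2 1.42.0 and limma 3.58.1 (voom). The n-Tr20 sequence is not used here.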

Additional observations from a re-analysis of the deposited data

Results flagged for a closer look

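Single libraries stood far from the other 3 of their group, by Dixon's test at the 95% level, in 14 of 198 groups of values, and chance flags about 1 in 20. In B6J, library 4 had Ddit4 at 18.3 CPM with the others at 26.0 to 27.2, library 2 had Sis at 0.0553 CPM with the others at 0.276 to 0.294, library 1 had Prickle2 at 231 CPM with the others at 239 to 240 and library 3 had Smarca1 at 82.2 CPM with the others at 72.4 to 73.6. In transgenic libraries, number 4 had Cars at 32.3 CPM with the others at 30.02 to 30.3, Adar at 123 CPM with the others at 139 to 140 and Catspere2 at 19.2 CPM with the others at 16.8 to 17.1.

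Summed markers stood apart in B6J 1 for choroid plexus (960 CPM, with the others at 234 to 242), thalamus (322, others 230 to 237), oligodendrocytes (4110, others 3560 to 3650) and ependyma (16.2, others 11.7 to 12.4), and in B6J 3 for olfactory bulb (216, others 187 to 191). In transgenic 1 they did so for choroid plexus (324, others 253 to 263) and blood (247, others 158 to 173).

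Effects differed between strains, by the test of the difference of log2 fold changes, for Atf4 (-0.39), Chac1 (-1.01), Irs2 (0.47), Islr2 (0.47), Snora41 (-1.79), Gm23767 (-1.74), Tmem181a (0.48, adjusted p = 0.000291) and Dynlt1b (0.91, adjusted p = 0.0206). Tmem181a had 0.05 in B6J minus transgenic and -0.42 in B6N knockout minus B6N, and Dynlt1b 0.06 and -0.85 in the same order. Both have near-identical neighbouring copies that can share their reads, so their values are uncertain.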

How the results depend on the processing

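Between B6J and transgenic forebrain 63 genes were called as reported, 163 by DESeq2, 106 with no filter on low counts, 6 with the length offset, 17 with thalamus markers as a term and 268 without both number 1 libraries (the last pair chosen after seeing the data), and 16 to 196 when 1 library was left out. Of 44 stress response genes 4 rose as reported, 2 in a fit of the 8 libraries alone, 2 with the length offset and 2 to 4 when 1 library was left out. The difference of effects, with 15 calls as reported, had 41 by DESeq2, 46 with no filter, 7 with the length offset, 5 without robust estimates, 93 without both number 1 libraries, 4 with the thalamus term and 4 to 78 when 1 library was left out. B6N knockout minus B6N had 481 calls as reported and 174 with the length offset. The cause of these differences was not tested.

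Same-numbered libraries deviated together only weakly (correlations 0.03 to 0.17, 2 of 4 over 0.1). Differently numbered libraries had correlations of -0.21 to 0.27, and 3 of 8 libraries were closest to their own number. The numbers were therefore not taken as pairs. With the number as a replicate block 63 genes were called in the fit of 16 libraries and 74 in that of 8, with 7 and 28 of the 63 calls ended. In each of these fits 4 stress response genes rose, but in that of 8 Mthfd2 was lost (adjusted p = 0.145) and Slc7a5 gained (adjusted p = 0.0315).

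No called gene reversed. Genes near 0 that were not called changed sign: Phgdh with the length offset (-0.0238), and without both number 1 libraries Ddit3 (-0.0152), Trib3 (-0.165), Ddit4 (-0.0288) and Psat1 (-0.00092). With the thalamus term Gtpbp2 (-0.0156) and Dynlt1b (-0.0612) did so. With 1 library left out the log2 fold change ran from -0.0443 to 0.0400 for Ddit3, -0.171 to 0.346 for Trib3, -0.0226 to 0.0714 for Gtpbp2, -0.0545 to 0.174 for Dynlt1b, -0.00203 to 0.173 for Ddit4, -0.0123 to 0.0536 for Phgdh and -0.00875 to 0.497 for Atf3. Slc7a5 passed by DESeq2 (adjusted p = 0.0202), with the block in the fit of 8 and without transgenic 1, and Chac1 without both number 1 libraries (adjusted p = 0.0476).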

Other observations

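Transgenic mouse 4 had a second library, in batch 2, which entered no fit. Atf4 was at 54.9 CPM there and at 58.5 CPM in the first library of that mouse, with 57.9 to 62.1 CPM over the transgenic libraries and 71.6 to 74.7 CPM over the B6J libraries. Irs2 was at 50.03 CPM, with 62.4 to 71.1 CPM in B6J, and Slc7a1 at 36.3 CPM, with 39.8 to 45.6 CPM in B6J. Nudt3 was at 163 CPM, with 196 to 199 CPM in B6J, and Cdkn1a at 4.93 CPM, with 8.00 to 11.3 CPM in B6J. Sis was at 1.48 CPM, with at most 0.296 CPM in B6J, and Htr7 at 9.12 CPM, with at most 6.91 CPM in B6J. Mthfd2, at 4.52 CPM, lay inside the B6J range of 4.40 to 5.85 CPM, and Asns, at 61.7 CPM, lay below that of 65.4 to 73.7 CPM. Of 16 genes examined, the repeat stood outside the transgenic range of batch 1 for 9. It was above that range for Gpr12 (20.5 CPM, with 13.8 to 16.7 CPM in the 4 libraries), Scg5 (128 CPM, with 119 to 126 CPM), Fkbp5 (31.0 CPM, with 26.1 to 29.3 CPM), Asns (range 57.6 to 61.6 CPM) and Mthfd2 (range 2.76 to 4.31 CPM). It was below it for Atf4, Adar (119.6 CPM, with 124 to 140.1 CPM), Islr2 (31.8 CPM, with 37.1 to 44.1 CPM) and Flywch2 (4.08 CPM, with 4.95 to 5.46 CPM). All of these values are unscaled.

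Chaperones of the endoplasmic reticulum and heat shock proteins were positive for 25 of 28 tested genes (median 0.12), with none called. Dnajb11, a co-chaperone of BiP, had 0.21 and Hyou1, a large ER chaperone, 0.12, both without overlap (adjusted p = 0.135 and 0.312). Of 27 genes of sterol and fatty acid synthesis 9 were positive (median -0.03), and of 44 glutamate synapse genes 33 were positive (median 0.05). Among the latter Shank2, a scaffold of the postsynaptic density, had 0.23 (adjusted p = 0.0695) and Grin2d, an NMDA receptor subunit, -0.49 (adjusted p = 0.0588), both without overlap. None of 23 genes tested at loci known to vary between B6J and B6N was called, with a median of 0.0026.

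Of the 63 called genes 42 had a leading transcript whose libraries were apart in the direction of the gene, and 21 had one that overlapped.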
